A study of Homo sapiens with 12 samples.

Results

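Of the 28035 genes with values in the deposited table, 8 were described here, the receptors EGFR, ERBB2 and ERBB3 and the ligands AREG, EREG, HBEGF, TGFA and BTC, taken by gene name. They were measured by messenger RNA sequencing in OVCAR-3 cells, an established wild-type human ovarian adenocarcinoma line of epithelial type, collected after 6 h of treatment. The 12 libraries formed 4 groups of 3, namely fusicoccin A with interferon alpha (Combination), interferon alpha alone (IFNa), fusicoccin A alone (FC-A) and the solvent dimethyl sulfoxide (DMSO). FC-A is a fungal diterpene glycoside that stabilises contacts between 14-3-3 adapter proteins and their partners, and interferon alpha is an antiviral cytokine. The sources used here give neither doses nor whether the IFNa cells also received the solvent. All groups share 1 cell line, and the labels do not say whether the 3 libraries of a group came from separate cultures, so p-values speak of the spread among these libraries alone.

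The EGF receptor family comprises receptor tyrosine kinases that pair on binding a ligand and phosphorylate each other, which recruits adapters and starts the RAS-ERK and PI3K-AKT cascades. ERBB2 binds no known ligand and serves as a partner receptor, while ERBB3 has little kinase activity and signals mainly through its partners. The ligands are made as membrane-anchored precursors that metalloproteases release from the cell surface, and carcinoma cells often make both ligands and receptors. AREG (amphiregulin) and TGFA bind EGFR, whereas HBEGF, EREG and BTC (betacellulin) bind EGFR and ERBB4.

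AREG, EREG and BTC lie on chromosome 4, TGFA on chromosome 2, HBEGF on chromosome 5, EGFR on chromosome 7, ERBB3 on chromosome 12 and ERBB2 on chromosome 17. The RefSeq promoter table (GRCh38.p14) holds 9 start sites for 7 of the 8 genes, each from 250 bases before to 50 bases after the start. ERBB3 was not matched. The promoters of the 3 ligand genes on chromosome 4 are shown because each of these genes was higher with interferon below. Capitals mark a TATA box in EREG and a CRE followed by a TATA box in AREG, and the BTC window held none of the motifs searched.
EREG, chr4:74364895-74365194, plus strand: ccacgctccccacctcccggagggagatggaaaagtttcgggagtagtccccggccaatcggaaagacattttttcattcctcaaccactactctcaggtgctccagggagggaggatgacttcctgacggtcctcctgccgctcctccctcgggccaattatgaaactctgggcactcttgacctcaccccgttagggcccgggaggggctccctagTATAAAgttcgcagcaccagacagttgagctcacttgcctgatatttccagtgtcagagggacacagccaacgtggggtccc
AREG, chr4:74444886-74445185, plus strand: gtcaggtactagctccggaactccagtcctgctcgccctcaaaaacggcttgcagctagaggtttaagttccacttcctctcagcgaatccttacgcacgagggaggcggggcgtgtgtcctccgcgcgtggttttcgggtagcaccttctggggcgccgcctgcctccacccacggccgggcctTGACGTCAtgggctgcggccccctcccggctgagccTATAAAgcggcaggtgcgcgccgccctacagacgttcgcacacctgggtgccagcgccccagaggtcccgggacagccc
BTC, chr4:74794474-74794773, minus strand: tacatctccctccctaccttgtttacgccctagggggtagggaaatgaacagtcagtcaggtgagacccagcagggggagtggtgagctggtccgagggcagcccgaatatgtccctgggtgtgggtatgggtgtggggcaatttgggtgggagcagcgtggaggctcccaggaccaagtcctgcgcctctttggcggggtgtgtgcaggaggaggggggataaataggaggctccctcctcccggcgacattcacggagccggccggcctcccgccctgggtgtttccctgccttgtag

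The motifs were searched on both strands as plain letters. The core of the interferon-stimulated response element (GAAA, any 2 bases, GAAA) stands in 3.57% of 35116 RefSeq promoters of this length, the STAT-binding GAS motif (TTCNNNGAA) in 7.66%, the AP-1 motif (TGANTCA) in 7.71%, the cyclic AMP response element CRE (TGACGTCA) in 1.85% and the TATA box (TATAAA) in 11.5%. The AREG window held the CRE with its first base at -65 and a TATA box at -29 relative to the start, and the EREG window held a TATA box at -32. ERBB2 had 1 AP-1 match at -222, and the second EGFR start site had AP-1 matches at -232 and -136 and TATA boxes at -146 and -36. The windows of HBEGF, TGFA and the first EGFR start site held no match. A match describes the letters and does not show a site in use.

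Reads assigned to genes came to 31.2 to 39.5 M per library, and the values are normalized reads, the authors' counts divided by 1 size factor per library. Under this scaling the normalized reads summed to 36.9 ± 0.128 M in Combination and 37.0 ± 0.687 M in IFNa libraries, against 32.2 ± 0.519 M in FC-A and 32.4 ± 0.177 M in DMSO libraries (SD, n = 3 each). The epithelial identity stood in every group, with 8 epithelial and ovarian markers summing to 370317 to 423207 normalized reads in Combination, 338033 to 394814 in IFNa, 319235 to 399842 in FC-A and 355898 to 375266 in DMSO libraries. Within this sum the markers differed in direction. CDH1 averaged 9550 in Combination, 8937 in IFNa, 7792 in FC-A and 7754 in DMSO libraries. In the same order PAX8 averaged 22701, 21508, 18781 and 17709. KRT19 averaged 96184, 85769, 104696 and 100058, and WT1 635, 715, 640 and 735. The 5 leukocyte markers measured summed to 195 to 313 over all libraries. The 6 fibroblast markers summed to 1802 to 2438 in Combination and 1625 to 2156 in IFNa libraries, mostly COL1A1 reads. They summed to 1235 to 1275 in FC-A and 1072 to 1137 in DMSO libraries, again mostly COL1A1. FAP averaged 220 in Combination, 240 in IFNa, 210 in FC-A and 206 in DMSO libraries. In the same order COL1A2 averaged 51.1, 44.6, 83.3 and 78.1, and PDGFRB 7.31, 6.96, 11.5 and 9.28. DCN was at 0 in all Combination, FC-A and DMSO libraries and averaged 0.63 in IFNa. LUM averaged 0 in Combination, 0.34 in IFNa, 0.32 in FC-A and 0 in DMSO libraries. The 3 endothelial markers summed to 182 to 232 in Combination, 193 to 253 in IFNa, 253 to 341 in FC-A and 286 to 359 in DMSO libraries. KDR went the other way, averaging 78.4 in Combination, 58.2 in IFNa, 41.0 in FC-A and 41.9 in DMSO libraries. In the same order VWF averaged 69.7, 76.2, 148 and 165, and CDH5 64.2, 82.7, 97.1 and 122. The part of these markers in the results below was not tested. In bulk RNA, a change in the number of cells that make a transcript and a change in transcript per cell cannot be told apart.

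Replicate 3 stood apart in the same direction in each group for 5 of the 8 genes. EGFR, ERBB3 and BTC were highest in replicate 3 in 4 of 4 groups, and HBEGF and TGFA were lowest there in 4 of 4. ERBB2 was highest there in 3 of 4 groups, whereas EREG was highest in 1 and lowest in 2, and AREG highest in 1 and lowest in 1. For HBEGF, log2 of replicate 3 minus the mean of the other replicates was -0.86 in Combination, -0.80 in IFNa, -0.68 in FC-A and -0.50 in DMSO. Nothing in the labels sets replicate 3 apart, so results that rest on it are given with and without it.

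**Figure D1:**
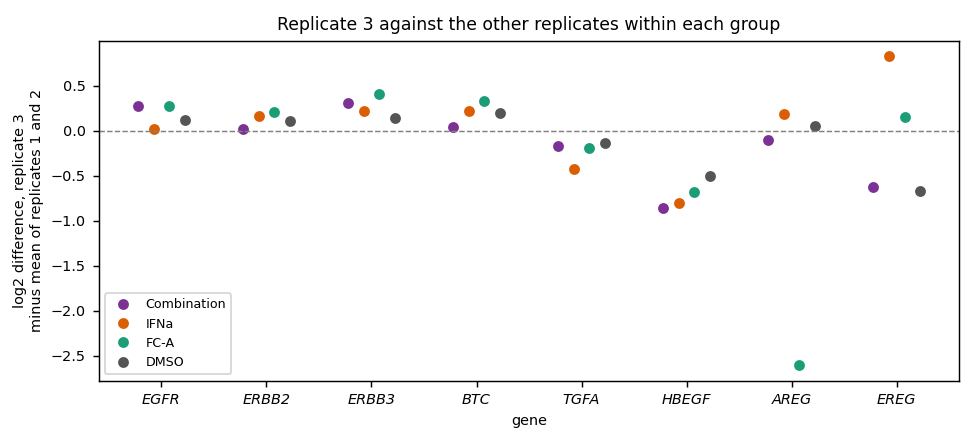
For each gene on the horizontal axis, points give the log2 difference between replicate 3 and the mean of replicates 1 and 2 within 1 group, colored by group. All HBEGF and TGFA points lie below 0 and all EGFR, ERBB3 and BTC points above it; the lowest point, AREG with FC-A, is a library with 0 reads.

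Compared per kilobase of exon, BTC stood above TGFA and EGFR in the groups with interferon, while TGFA was above BTC and the 3 receptors led in FC-A and DMSO libraries. The lengths merge all annotated exons of a gene, 11.333 kb for EGFR and 2.816 kb for BTC. Which transcripts the cells made was not determined, so the order of genes depends on these lengths. Before division, EGFR averaged 5363 and BTC 1642 normalized reads with IFNa. In Combination libraries BTC at 593 ± 11.4 normalized reads per kilobase stood above EGFR at 448 ± 54.3 and TGFA at 376 ± 25.7 (SD, n = 3, as for all these values). With IFNa, BTC had 583 ± 52.8 per kilobase, next to ERBB3 at 615 ± 56.5, and stood above EGFR at 473 ± 5.77 and TGFA at 469 ± 75.6. Neither ERBB3 and BTC nor EGFR and TGFA were separated by more than their spread there. AREG and EREG were the least abundant members with IFNa, at 30.8 ± 3.47 and 9.15 ± 3.35 per kilobase. FC-A libraries had the members in the order of DMSO libraries, with TGFA at 254 ± 31.3 and BTC at 164 ± 27.8 per kilobase. In DMSO, ERBB2 had 1368 ± 60.1 normalized reads per kilobase, ERBB3 680 ± 39.1, EGFR 363 ± 17.9, TGFA 273 ± 18.1, BTC 210 ± 17.7, HBEGF 37.1 ± 8.84, AREG 3.77 ± 0.65 and EREG 1.27 ± 0.61 (SD, n = 3).

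Interferon alpha alone raised the RNA of all 5 ligands and of EGFR and lowered that of ERBB2. In the comparison of IFNa with DMSO, 7 of the 8 genes passed limma's threshold, an adjusted p of 0.05 over 15990 tested genes, 6 of them higher and 1 lower. Of all tested genes 46.9% passed, 25.4% higher and 21.5% lower, so a call by itself sets no gene apart from the rest. The libraries of both groups did not overlap in 7 of the 8 genes, as in 58.2% of all tested genes. All 8 genes passed the minimum mean of 10 normalized reads, but AREG and EREG passed it only through the libraries with interferon, so their 2 calls are given by value and are not counted as support for the ligands as a group.

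BTC, a ligand of EGFR and ERBB4, had 1595, 1522 and 1808 normalized reads in the IFNa libraries, against 551, 579 and 647 in the DMSO libraries. Every IFNa library was above every DMSO library by a wide gap. The difference was 2.77-fold (log2 1.47, SE 0.11), with an adjusted p of 5.08e-08 in limma. TGFA, the EGFR ligand first found in transformed cells, had 2426, 2489 and 1832 normalized reads with IFNa, against 1401, 1293 and 1229 with DMSO. The groups did not overlap, and replicate 3 was the lowest of both. TGFA was 1.71-fold higher (log2 0.77, SE 0.11, limma adjusted p = 5.49e-05).

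HBEGF, which also serves as the diphtheria toxin receptor, had 299.8, 335 and 181 normalized reads in IFNa libraries, against 111, 86.1 and 68.7 in DMSO libraries. The lowest IFNa library was above the highest DMSO library. The difference was 3.01-fold (log2 1.59, SE 0.31, limma adjusted p = 0.000877), and replicate 3 was the lowest library of both groups.

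EREG (epiregulin) had 31.6, 35.2 and 60.0 normalized reads with IFNa, against 9.07, 4.78 and 3.81 with DMSO. These rest on 31, 37 and 55 reads with IFNa and 10, 5 and 4 with DMSO, and the groups did not overlap. EREG was 6.36-fold higher on the log2 scale with 1 added (log2 2.67, SE 0.35, limma adjusted p = 2.22e-05), a scale that understates changes of genes this low. AREG had 39.8, 33.3 and 41.5 normalized reads with IFNa, against 5.44, 3.83 and 4.77 with DMSO. These stood for 39, 35 and 38 reads with IFNa and 6, 4 and 5 with DMSO, again without overlap. AREG was 6.92-fold higher (log2 2.79, SE 0.58, limma adjusted p = 0.00129). The hg19 build holds AREGB, a near-identical copy beside AREG, and how reads shared by both were counted is not given, so the AREG level is uncertain.

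**Figure D2:**
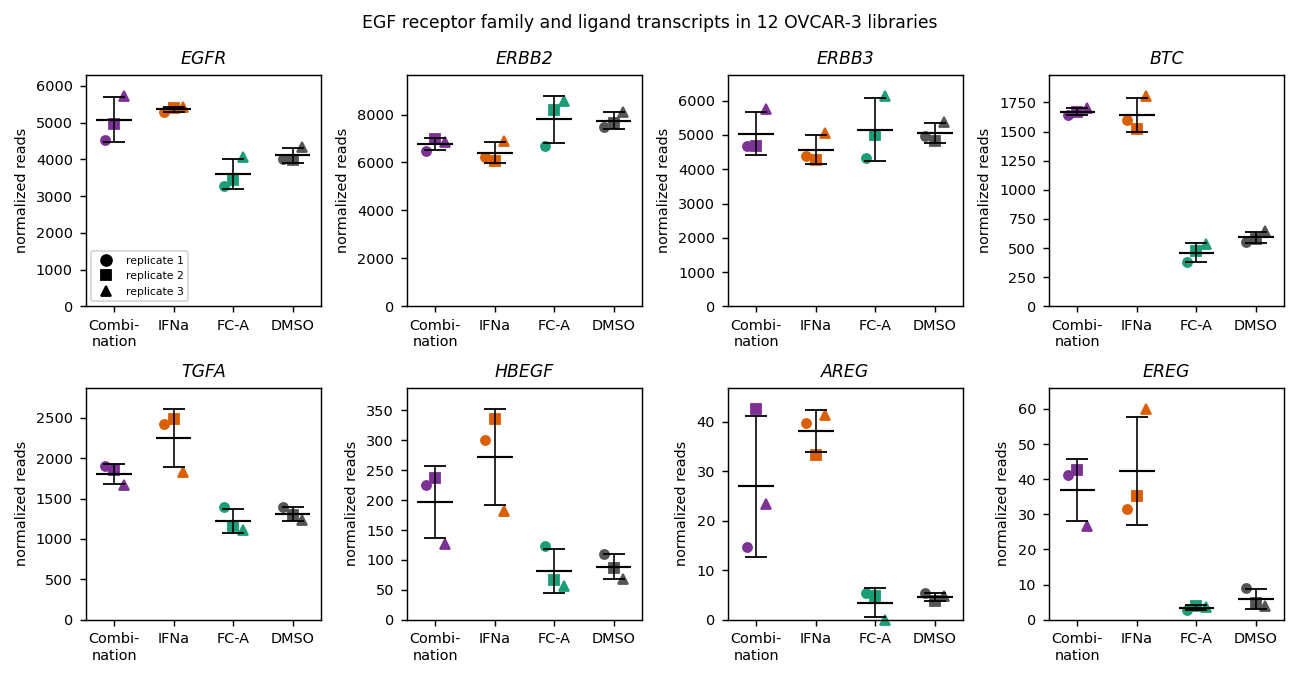
Each panel shows 1 gene, with normalized reads on a linear vertical axis and the groups Combination, IFNa, FC-A and DMSO from left to right. Points are libraries marked by replicate and the bars are group means with SD (n = 3). In the 5 ligand panels every Combination and IFNa library lies above every FC-A and DMSO library, and in the ERBB3 panel the groups overlap.

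EGFR, the receptor of all 5 ligands, had 5289, 5387 and 5413 normalized reads in IFNa libraries, against 4018, 3974 and 4345 in DMSO libraries. The groups were separate, and EGFR was 1.31-fold higher (log2 0.38, SE 0.08, limma adjusted p = 0.00199). ERBB2 had 6220.3, 6082 and 6909 normalized reads with IFNa, against 7461, 7659.6 and 8125 with DMSO. The highest IFNa library was below the lowest DMSO library, and ERBB2 was 1.21-fold lower (log2 -0.28, SE 0.08, limma adjusted p = 0.0108). ERBB3 had 4396, 4257 and 5044 normalized reads with IFNa, against 4967, 4812 and 5375 with DMSO. These groups overlapped and ERBB3 did not pass the test (log2 -0.15, SE 0.11, limma adjusted p = 0.303).

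The small receptor differences depended on the settings, and libraries with interferon had larger sums of normalized reads (given above). Scaled to equal library totals, the median of all tested genes lay at -0.196 for IFNa against DMSO, compared with -0.01 as deposited, and 25.5% of calls were higher instead of 54.2% as deposited, with 58.5% of genes called. Under quantile normalization the median lay at -0.099 and 36.6% of calls were higher, with 50.9% of genes called. EGFR then lost its call, with a log2 difference of 0.19 and an adjusted p of 0.0837 under equal totals and 0.17 with 0.133 under quantile normalization, and its adjusted p spanned 6.74e-06 to 0.133 over 23 alternatives. ERBB3 gained a call as lower, at -0.34 (adjusted p = 0.0295) under equal totals and -0.35 (adjusted p = 0.0284) under quantile normalization, within a span of 0.0201 to 0.564. ERBB3 was also called lower without replicate 3 of every group, at -0.18 (adjusted p = 0.0201). ERBB2 was called lower in 23 of 23 alternatives, and BTC, TGFA and HBEGF were each called higher in 23 of 23. AREG and EREG were too, but they pass the minimum mean only through the libraries with interferon.

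The ratio of EGFR to ERBB2 reads within a library needs no scaling. It was 0.840 ± 0.0519 in IFNa libraries, against 0.531 ± 0.0104 in DMSO libraries (SD, n = 3), a log2 difference of 0.66. The 3 IFNa libraries had 0.850, 0.886 and 0.783, all above the DMSO libraries at 0.539, 0.519 and 0.535. In a two-sided exact permutation test p was 0.1, the smallest that 3 libraries against 3 allow.

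Combined treatment gave levels of all 5 ligands above those of DMSO, with the smallest log2 difference, 0.46, for TGFA. The mean of BTC was close to that with interferon alone. The means of TGFA, HBEGF, AREG and EREG were below those with interferon alone, by differences that did not pass limma's threshold over all libraries (given below). Of the 8 genes, 6 passed limma's threshold in the comparison of Combination with DMSO, the 5 ligands and EGFR, all higher. Of all tested genes 26.1% were higher and 22.2% lower (48.3% in all). Among the 6, AREG and EREG pass the minimum mean only through the libraries with interferon. BTC had 1639, 1669 and 1703 normalized reads in Combination libraries, 2.82-fold above DMSO (limma adjusted p = 3.71e-08). TGFA had 1899, 1851 and 1666 (log2 0.46, limma adjusted p = 0.00315), and HBEGF had 226, 237 and 127 (log2 1.12, limma adjusted p = 0.00931). All these libraries were above the DMSO libraries given above. Groups did not overlap in 7 of the 8 genes, as in 60.8% of all tested genes.

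EREG had 41.2, 42.6 and 26.7 normalized reads in Combination libraries (5.66-fold, limma adjusted p = 3.69e-05). AREG was the most variable member, with 14.8, 42.6 and 23.5 (log2 2.18, limma adjusted p = 0.00658), yet its lowest Combination library was above the highest DMSO library. EGFR had 4517, 4975 and 5736 normalized reads in Combination libraries (log2 0.30, limma adjusted p = 0.00995). EGFR in this comparison lost its call under equal totals (log2 0.11, adjusted p = 0.316) and under quantile normalization (log2 0.10, adjusted p = 0.392), within a span of 0.00012 to 0.392 over 23 alternatives. Under equal totals 59.6% of all genes were called, 26.6% of these higher, and under quantile normalization 53.5%, 35.9% of these higher, compared with 53.9% of calls as deposited, and the median of all genes was -0.197 under equal totals. The ratio of EGFR to ERBB2 was 0.749 ± 0.0784 in Combination libraries, against 0.531 ± 0.0104 in DMSO libraries (exact permutation p = 0.1, the smallest possible).

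ERBB2 had 6489, 6996 and 6838 normalized reads in Combination libraries, all below the DMSO libraries, but missed the threshold (log2 -0.19, SE 0.08, limma adjusted p = 0.058). It was called lower in 9 of 23 alternatives, with adjusted p from 0.00187 to 0.180, among them TMM scaling, edgeR and the authors' deposited table, and also when FC-A replicate 1, FC-A replicate 3 or IFNa replicate 3 was left out of the shared fit. ERBB3 had 4679.7, 4664 and 5769 normalized reads in Combination libraries, overlapping with DMSO (log2 -0.01, 95% interval -0.25 to 0.23, limma adjusted p = 0.952).

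**Figure D3:**
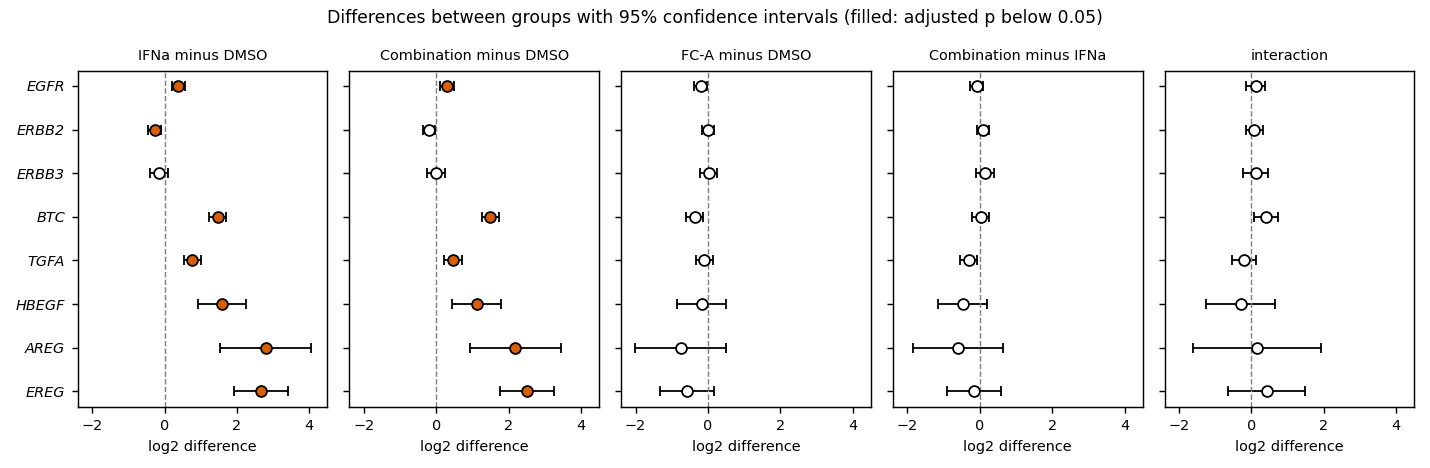
Points give each gene's log2 difference from limma for the comparisons named in the panel titles, with 95% intervals as bars, filled where the adjusted p is below 0.05. The ligands lie right of 0 in the comparisons that differ in interferon, and every gene is open in the comparisons that differ only in FC-A.

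FC-A by itself left the family without a change that passed limma's test over all libraries. In the comparison of FC-A with DMSO, limma called 0 of the 8 genes, where 0.3% of all tested genes were called. On the recovered reads edgeR called 0 of the 8 (0.3% of all tested genes). DESeq2 called 0 (1.26% of the 12816 genes to which it gave an adjusted p). The authors' deposited results give AREG and EREG no adjusted p in this comparison. BTC and EGFR had an unadjusted p under 0.05 in limma. Groups did not overlap in 1 of the 8 genes, BTC, as in 15.2% of all tested genes. BTC had 377, 475 and 532 normalized reads in FC-A libraries, against 551, 579 and 647 in DMSO libraries (log2 -0.37, 95% interval -0.60 to -0.14, unadjusted p = 0.00371, limma adjusted p = 0.237). EGFR had 3289.5, 3432 and 4059 normalized reads with FC-A, against 4018, 3974 and 4345 with DMSO, with overlap (log2 -0.20, 95% interval -0.38 to -0.02, limma adjusted p = 0.532). Without replicate 3 of every group, both fell below DMSO by a call, BTC at -0.41 (adjusted p = 0.0387) and EGFR at -0.25 (adjusted p = 0.0323), where 0.838% of all genes were called. Over 23 alternatives the adjusted p spanned 0.0107 to 0.633 for BTC and 0.0323 to 0.877 for EGFR. The ratio of EGFR to ERBB2 was 0.462 ± 0.0376 in FC-A libraries, against 0.531 ± 0.0104 in DMSO libraries (SD, n = 3), without overlap (log2 -0.20, exact permutation p = 0.1, the smallest possible).

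The other members had intervals around 0. TGFA had 1392, 1159 and 1111 normalized reads in FC-A libraries (log2 -0.10 against DMSO, 95% interval -0.34 to 0.13). HBEGF had 124, 65.7 and 56.1 (log2 -0.17, 95% interval -0.85 to 0.50), ERBB2 had 6693, 8178 and 8548 (log2 0.00, 95% interval -0.17 to 0.17) and ERBB3 had 4331, 4988 and 6147 (log2 0.02, 95% interval -0.23 to 0.26). EREG had 2.67, 3.86 and 3.68 normalized reads with FC-A, from 3, 4 and 4 reads. AREG had 5.35, 4.83 and 0, from 6, 5 and 0 reads, where 3 reads, the limit a count of 0 allows, would be 2.76 normalized reads in that library. At these counts only large differences in AREG and EREG could be detected, and such limits cover counting error only.

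FC-A added to interferon did not move any member past limma's threshold over all libraries. In the comparison of Combination with IFNa limma called 0 of the 8 genes (0.331% of all tested genes) and edgeR 0 (0.344%). DESeq2 called 0 (1.65% of the 13903 genes to which it gave an adjusted p). The authors' deposited results give AREG and EREG no adjusted p here. Groups overlapped in all 8 genes, while 16.4% of all tested genes had no overlap. TGFA alone had an unadjusted p under 0.05, with 1899, 1851 and 1666 normalized reads in Combination libraries, against 2426, 2489 and 1832 in IFNa libraries. The groups overlapped, since IFNa replicate 3 was below the highest Combination libraries (log2 -0.31, 95% interval -0.54 to -0.07, unadjusted p = 0.0151, limma adjusted p = 0.274). Without IFNa replicate 3, TGFA was called lower (log2 -0.45, adjusted p = 0.027), and likewise without replicate 3 of every group (log2 -0.39, adjusted p = 0.00697), where 7.42% of all genes were called. Over 23 alternatives its adjusted p spanned 0.00697 to 0.697.

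BTC averaged 1670 ± 32.0 normalized reads in Combination libraries and 1642 ± 149 in IFNa libraries (log2 0.03, 95% interval -0.20 to 0.26). HBEGF averaged 197 ± 60.5 in Combination libraries and 272 ± 80.6 in IFNa libraries (log2 -0.47, 95% interval -1.15 to 0.20), and AREG averaged 27.0 ± 14.3 in Combination libraries and 38.2 ± 4.30 in IFNa libraries (log2 -0.61, 95% interval -1.85 to 0.64). EREG averaged 36.8 ± 8.81 with Combination and 42.3 ± 15.5 with IFNa (SD, n = 3 each), with a log2 difference of -0.17. The receptors differed by -0.09 for EGFR, 0.08 for ERBB2 and 0.14 for ERBB3 on the log2 scale, and limma's adjusted p was above the threshold for all 3. The intervals of the low ligands are wide enough to hold a decrease or an increase of sizeable folds.

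The test of whether FC-A acted differently with and without interferon called 0 of the 8 genes and 0 of all tested genes (0%) in limma, and 1 of the 8 had an unadjusted p under 0.05. The gene with that p was BTC, whose FC-A difference was 0.40 higher on the log2 scale with interferon than without (95% interval 0.08 to 0.72, unadjusted p = 0.0191, limma adjusted p = 0.9998). edgeR and DESeq2 also called 0 of the 8, where edgeR called 0% and DESeq2 0.0107% of all genes.

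Interferon added to FC-A was compared with FC-A alone, a comparison that shares no library with that of IFNa and DMSO. The 5 ligands and EGFR were called higher by limma, 6 of the 8 genes, where 26.6% of all tested genes were higher and 22.3% lower (48.9% in all). Among the 6, AREG and EREG pass the minimum mean only through the libraries with interferon. BTC had 1639, 1669 and 1703 normalized reads in Combination libraries, against 377, 475 and 532 in FC-A libraries, 3.65-fold higher (log2 1.87, SE 0.11, limma adjusted p = 3.13e-09). The log2 differences were 0.57 for TGFA (limma adjusted p = 0.000696), 1.29 for HBEGF (0.00374), 3.08 for EREG (4.81e-06) and 2.94 for AREG (0.00079). Without FC-A replicate 3, the library with no AREG reads, the AREG difference was 2.08. The Combination libraries did not overlap with the FC-A libraries in 6 of the 8 genes, the 5 ligands and EGFR, as in 53.9% of all tested genes.

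EGFR was 1.41-fold higher in Combination than in FC-A libraries (log2 0.50, limma adjusted p = 0.000236) and was called in 23 of 23 alternatives of this comparison. The ratio of EGFR to ERBB2 was 0.749 ± 0.0784 in Combination libraries, against 0.462 ± 0.0376 in FC-A libraries (exact permutation p = 0.1, the smallest possible). ERBB2 missed the threshold (log2 -0.20, limma adjusted p = 0.0532) and was called lower in 9 of 23 alternatives, with adjusted p from 0.00107 to 0.203. Leaving out FC-A replicate 1 gave -0.30 with an adjusted p of 0.00107, and leaving out FC-A replicate 3 gave -0.13. ERBB3 differed by -0.03 (limma adjusted p = 0.870). In this comparison 60.2% of all genes were called under equal totals, 26.3% of these higher, and 53.2% under quantile normalization, 36.5% of these higher, compared with 54.4% of calls as deposited.

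Other ligands of the family also changed with interferon. NRG3 was not analysed here, and of the other 6 genes 4 were called higher and 1 lower in IFNa against DMSO, where 46.9% of all tested genes were called, with a median log2 difference of 1.04 and a median of all genes of -0.01. EPGN (epigen), an EGFR ligand, averaged 183 ± 11.9 normalized reads with IFNa and 45.9 ± 11.01 with DMSO, 3.99-fold higher (limma adjusted p = 5.03e-05). NRG2 and NRG1, neuregulins that bind ERBB3 and ERBB4, averaged 1001 ± 30.9 and 808 ± 141 with IFNa, against 257 ± 14.2 and 271 ± 24.7 with DMSO. Their log2 differences were 1.96 and 1.56 in limma (adjusted p = 5.37e-09 and 1.8e-05). NRG4, a ligand of ERBB4, went the other way, with 20.1 ± 1.52 normalized reads in IFNa and 51.2 ± 5.63 in DMSO libraries (log2 -1.31, limma adjusted p = 0.0015). EGF and the receptor ERBB4 are given to complete the list, outside the rule for named genes. EGF was 1.43-fold higher (limma adjusted p = 0.0152) but was not called under equal totals or without DMSO replicate 1, DMSO replicate 2 or IFNa replicate 1, and ERBB4 averaged 212 ± 44.1 with IFNa and 203 ± 2.02 with DMSO (log2 0.04, limma adjusted p = 0.842). In Combination against DMSO the list had 4 higher and 2 lower (26.1% and 22.2% of all tested genes). ERBB4 at -0.46 (limma adjusted p = 0.022) was the second lower gene beside NRG4 at -1.73. The ERBB4 call was lost, leaving 1 lower, without DMSO replicate 1, 2 or 3 or Combination replicate 1 or 3. It was also lost without replicate 3 of every group. NRG1 averaged 517 ± 90.1 in Combination and 808 ± 141 in IFNa libraries with no overlap, a difference that did not pass limma's test (log2 -0.64, adjusted p = 0.21) but was called in 4 of 23 alternatives, among them DESeq2, the authors' deposited table and the fit without replicate 3 of every group. In FC-A against DMSO limma, edgeR and DESeq2 called 0 of the 6, where limma called 0.3% of all tested genes. ERBB4, EGF and NRG1 had an unadjusted p under 0.05 in limma.

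EPGN, EREG, AREG and BTC follow each other on chromosome 4 in the RefSeq gene order. Each of the 4 was called higher with IFNa, where 25.4% of all tested genes were higher. AREG and EREG pass the minimum mean only through the libraries with interferon, so their calls do not count as support for a pattern of the run. The 3 genes on each side were looked up after the values of the members had been seen. On one side of EPGN stands MTHFD2L, a mitochondrial folate enzyme, at a log2 difference of 0.36 between IFNa and DMSO (limma adjusted p = 0.0149), followed by the chemokine genes CXCL2 at 3.43 and CXCL3 at 3.12. Beyond BTC, PARM1 was at 0.12 (limma adjusted p = 0.506), RCHY1 at 0.25 (0.0145) and THAP6 at 0.13 (0.243). EPGN at 1.996 and BTC at 1.47 lay above the direct neighbours on both sides, while the chemokine genes further out were higher still. EREG at 2.67 and AREG at 2.79 are given by value only. Whether the run changed as a unit was not tested.

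**Figure D4:**
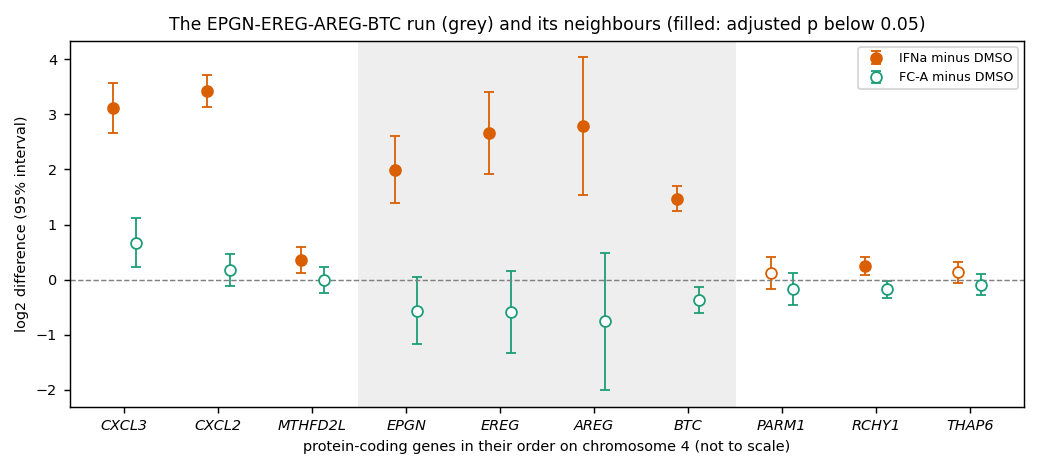
Log2 differences of IFNa minus DMSO and of FC-A minus DMSO from limma, with 95% intervals, for 10 genes in their RefSeq order along chromosome 4, evenly spaced and without distances. With IFNa the 4 ligand genes lie between 1.47 and 2.79, MTHFD2L and PARM1 beside them at 0.36 and 0.12, and CXCL2 and CXCL3 at 3.43 and 3.12. AREG and EREG pass the minimum mean only through the libraries with interferon. All FC-A points are open.

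Among genes that release the ligands RHBDF2 differed most. RHBDF2, an inactive rhomboid protein needed for the maturation of the sheddase ADAM17, averaged 6327 ± 227 normalized reads in Combination libraries, 5547 ± 539 in IFNa, 2538 ± 138 in FC-A and 2417 ± 51.9 in DMSO. It was 2.29-fold higher in IFNa than in DMSO (limma adjusted p = 1.79e-09). ADAM17, which cleaves the precursors of TGFA, AREG, EREG and HBEGF, was higher with IFNa by 0.32 on the log2 scale (limma adjusted p = 0.00118), and ADAM9 by 0.22 (limma adjusted p = 0.00104), and both lost their calls under equal totals and under quantile normalization. Of 7 tested genes of 8 in the list, 4 were higher and 0 lower with IFNa (25.4% and 21.5% of all genes), median 0.15, the fourth being ADAM10 at 0.12 (limma adjusted p = 0.0471), a call lost in 13 of 23 alternatives, and without IFNa replicate 3 1 was lower. Under equal totals and quantile normalization 1 was higher and 1 lower. In Combination against DMSO 5 were higher and 0 lower (26.1% and 22.2% of all tested genes). ADAM17 was at 0.48 (limma adjusted p = 2.79e-05) and RHBDF2 at 1.39, with RHBDL2 at 0.43 (call lost in 3 of 23 alternatives), FRMD8 at 0.40 and ADAM9 at 0.18. There 3 to 4 were higher and 1 lower under equal totals or quantile normalization. ADAM10 and FRMD8 were singled out after their values were seen. In Combination against IFNa limma and edgeR called 0 of the 7. DESeq2 called 1 (1.65% of the genes to which it gave an adjusted p). Without replicate 3 of every group limma called 3 there (7.42% of all tested genes).

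Genes that restrain the receptors also changed with interferon. Of 12, 8 were called higher and 1 lower in IFNa against DMSO (25.4% and 21.5% of all genes), median 0.28, and 4 to 6 were higher under equal totals or quantile normalization. PTPRJ, a receptor-type tyrosine phosphatase, averaged 8390 ± 1387 normalized reads in IFNa and 2900 ± 164 in DMSO libraries (log2 1.52, limma adjusted p = 2.42e-07). ERRFI1, which binds the EGFR kinase domain and inhibits it, averaged 5193 ± 84.4 in IFNa and 2644 ± 7.85 in DMSO libraries (log2 0.97, limma adjusted p = 4.28e-09). LRIG1, a membrane protein that promotes receptor turnover, was 1.57-fold higher (limma adjusted p = 3.17e-06). The lower gene was the ubiquitin ligase CBLB (log2 -0.20, limma adjusted p = 0.0268, singled out after its values were seen), whose call was lost without DMSO replicate 2, DMSO replicate 3 or IFNa replicate 2. Combination against DMSO also had 8 higher and 1 lower (26.1% and 22.2% of all tested genes). Under quantile normalization or equal totals 6 were higher and 2 to 3 lower. PTPN12, another tyrosine phosphatase, was at 0.48 in Combination against DMSO (limma adjusted p = 4.5e-07). In Combination against IFNa limma and edgeR called 0 of the 12. DESeq2 called 1 (1.65% of the genes to which it gave an adjusted p). Without replicate 3 of every group limma called 1 there (7.42% of all tested genes).

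The adapters and RAS-ERK kinases had a median near 0. Of 18 genes, 5 were higher and 1 lower with IFNa (25.4% and 21.5% of all genes), median 0.06. The higher genes included SHC1 and SOS1. Only 2 were higher without IFNa replicate 1 or 2 and 3 without DMSO replicate 1 or 2, and the split was 1 higher and 7 lower under both equal totals and quantile normalization. SHC1, the adapter that links phosphorylated receptors to RAS, averaged 5043 ± 137 normalized reads in IFNa and 3270 ± 43.7 in DMSO libraries (log2 0.62, limma adjusted p = 1.18e-07). The RAS exchange factors moved apart, SOS2 to -0.47 (limma adjusted p = 0.00033) and SOS1 to 0.25 (0.0138), and SOS1 lost its call in 5 alternatives. In Combination against DMSO 5 were higher and 2 lower (26.1% and 22.2% of all tested genes), the lower ones SOS2 and the adapter GAB2 at -0.28. There 2 were higher without DMSO replicate 3, and 3 without DMSO replicate 1 or any 1 Combination library. Under equal totals 2 were higher and 10 lower, and under quantile normalization 3 higher and 10 lower. In the PI3K-AKT branch 5 of 10 tested genes were higher and 2 lower with IFNa (25.4% and 21.5% of all genes), and 2 and 2 under equal totals or quantile normalization. PIK3CA, a catalytic subunit, was at 0.53 (limma adjusted p = 2.84e-05), the kinase AKT1 at 0.37 (0.000385, lost under quantile normalization) and the catalytic subunit PIK3CB at -0.31 (0.000293). PDPK1, PIK3CD and AKT2 were higher by 0.21 to 0.27. In FC-A against DMSO limma and edgeR called 0 of either list. DESeq2 called 1 of the 18 and 1 of the 10 (1.26% of the genes to which it gave an adjusted p). In Combination against IFNa limma and edgeR again called 0 of either list. DESeq2 there called 1 of the 18 and 0 of the 10 (1.65% of such genes).

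Genes known to respond to ERK activity were higher as a whole list. The list was chosen with earlier results of these data known, so its counts are a description and not independent support. All 13 were called higher in IFNa against DMSO, in Combination against DMSO and in Combination against FC-A, with medians of 1.84, 1.56 and 1.69. Of all tested genes 25.4%, 26.1% and 26.6% were called higher in these comparisons. All 13 were also called higher in each under equal totals and quantile normalization. The AP-1 subunit FOSL1 averaged 1691 ± 94.5 normalized reads in Combination libraries, 1806 ± 92.2 in IFNa, 130 ± 35.3 in FC-A and 164 ± 23.7 in DMSO, with a log2 difference of 3.46 between IFNa and DMSO (limma adjusted p = 2.64e-10). SPRY4, a feedback inhibitor of receptor signalling, was 9.28-fold higher (limma adjusted p = 2.18e-13), and the ERK phosphatase DUSP6 was 5.42-fold higher (2.03e-10). Several of these genes also respond to other stimuli, and phosphorylated receptors or ERK were not measured. Limma called 0 of the 13 in FC-A against DMSO (0.3% of all tested genes), and edgeR and DESeq2 also 0. DUSP6, SPRY2, SPRY4 and FOSL1 had an unadjusted p under 0.05, at -0.35 to -0.18. In Combination against IFNa limma, edgeR and DESeq2 called 0, where limma called 0.331% of all tested genes. DUSP4, SPRY2 and ETV4 had an unadjusted p under 0.05.

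**Figure D5:**
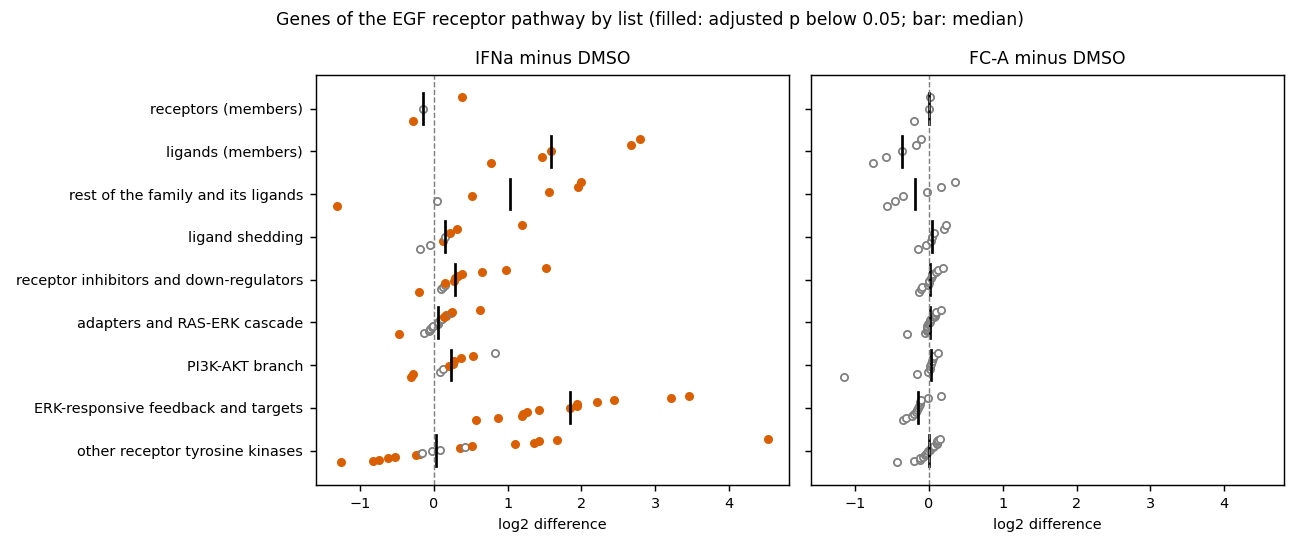
Points give the log2 differences from limma of each tested gene of the lists named on the axis, for IFNa minus DMSO (left) and FC-A minus DMSO (right), filled where the adjusted p is below 0.05, and bars mark list medians. In the left panel the ERK-responsive list has its median at 1.84, the ligands at 1.59 and the adapter list at 0.06. The ligand median includes AREG and EREG, which pass the minimum mean only through the libraries with interferon. In the right panel every point is open.

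The genes most like each member over the 12 libraries were found by the smallest root mean square difference of log2 values, each gene centred on its own mean, among the 13038 or 13039 tested genes averaging 50 normalized reads or more. For BTC these were STARD5 (0.130) and STAT5A (0.136), for TGFA DUSP14 (0.0497) and DRAM1 (0.0776), and for HBEGF SLCO2A1 (0.178) and CYR61 (0.183). For EREG they were MAFF (0.319) and SOCS1 (0.389), and for AREG BIRC3 (0.615) and CLDN1 (0.618). For EGFR they were SBF2 (0.0768) and TMTC1 (0.0786), for ERBB2 RMND5B (0.0413) and RBL2 (0.043), and for ERBB3 CELSR1 (0.0454) and ARSD (0.048). These values are descriptions, and all libraries share their cell line and scaling.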

How the data were processed

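Messenger RNA of OVCAR-3 cells was sequenced from 100 ng of RNA with a stranded kit, per the labels' protocols. DESeq2 1.24.0, STAR 2.7.3, bcl2fastq 2.20, FastQC and the build hg19 are named in the submitters' processing notes. The sources used here give no counting program, strand setting or annotation, so reads of overlapping antisense genes such as EGFR-AS1 cannot be told apart. The signal values deposited by the authors are normalized counts, 1 per gene and library. Multiplied by 1 factor per library, 100% of them came within 0.01 of a whole number, so whole reads were recovered. The authors' deposited tables also hold log2 fold changes, test scores and p-values in DESeq2's column layout, per the file headers.

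Genes averaging 10 normalized reads or more were tested (15990 of 28035). limma 3.58.1 in R 4.3.3 fitted log2(value + 1) in all 12 libraries with 4 group means and a variance trend. Tests were two-sided, adjusted by Benjamini-Hochberg over all tested genes at 0.05, and SE and 95% intervals are limma's moderated ones. The script was tested on simulated data. Alternatives were pseudocounts of 0.5 and 8, no filter, TMM and quantile scaling, a block for the replicate number, leaving out each library or replicate 3 of every group, edgeR 4.0.16 and DESeq2 1.42.0 on recovered reads, and the authors' deposited tables. Scaling to equal library totals (reads per M) was added after the data were seen. The interaction is Combination minus IFNa minus FC-A plus DMSO.

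The members and gene lists were chosen with earlier results of these data known. In each list up to 3 genes with the largest difference past the threshold were named per comparison, and the text gives a part of them. For each member, the 2 genes of most similar pattern were named among genes averaging 50 or more. Levels per kilobase use merged exon lengths of GENCODE. Comparisons that share a group share its libraries. Values of some listed genes are not reported here.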

Additional observations from a re-analysis of the deposited data

How the results depend on the processing

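Over 23 alternatives (22 for the interaction), BTC, TGFA and HBEGF kept their direction and call in IFNa against DMSO, Combination against DMSO and Combination against FC-A, and so did AREG and EREG, which pass the minimum mean only through the libraries with interferon. The number of members called stayed within 1.5 times its original in those comparisons. In FC-A against DMSO it was 0, with a range of 0 to 2 when libraries were left out, the 2 without replicate 3. In Combination against IFNa it was 0, with a range of 0 to 1, the 1 without IFNa replicate 3 or without replicate 3. The rule for pairing, that every correlation between same-numbered libraries passes 0.1, was not met, since 10 of 18 did. As a hint from the data, libraries correlated best with their own number in 25 of 36 checks, replicate 3 in 12 of 12. With the replicate number as a block, 1 member was called in FC-A against DMSO (BTC, adjusted p = 0.0107), 8 in IFNa against DMSO (ERBB3 added, 0.0344), 7 in Combination against DMSO, 1 in Combination against IFNa (TGFA, 0.0101), 7 in Combination against FC-A and 0 in the interaction, while calls over all genes were 289, 8619, 8859, 1009, 8910 and 1, compared with 48, 7507, 7724, 53, 7818 and 0 without it.

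Directions that turned belonged to differences called in neither setting, and the cause was not tested. With libraries left out, the log2 difference ranged in FC-A against DMSO from -0.066 to 0.11 for ERBB2, -0.12 to 0.13 for ERBB3, -1.22 to 0.13 for AREG and -0.51 to 0.055 for HBEGF. In Combination against IFNa it ranged from -0.34 to 0.32 for EREG and -0.024 to 0.10 for BTC. ERBB3 ranged from -0.11 to 0.042 in Combination against DMSO and from -0.14 to 0.11 in Combination against FC-A. In the interaction, ERBB2 ranged from -0.028 to 0.16, AREG from -0.71 to 0.62 and HBEGF from -0.57 to 0.038, and AREG was also -0.29 with a pseudocount of 8, -0.12 under quantile normalization, -0.070 in edgeR and -0.042 in DESeq2. AREG and EREG rest on 10 or fewer reads in every FC-A and DMSO library, which limits what can be seen without interferon.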

Other observations

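Receptor tyrosine kinases outside the EGF receptor family changed in both directions with interferon alpha. Of 20 listed, 18 were tested, and 7 were called higher and 7 lower by limma in IFNa against DMSO (25.4% and 21.5% of all tested genes), with a median log2 difference of 0.03. RET, the receptor of the GDNF family ligands, averaged 255 ± 17.1 normalized reads in Combination libraries, 244 ± 10.2 in IFNa, 12.1 ± 6.82 in FC-A and 9.71 ± 1.52 in DMSO (SD, n = 3 each). Its log2 difference was 4.52 in IFNa against DMSO (limma adjusted p = 5.62e-08), and its DMSO mean lies under the minimum for testing. MST1R, the receptor of macrophage-stimulating protein, was at 1.66 (limma adjusted p = 8.03e-10) and MET, the receptor of hepatocyte growth factor, at 1.42 (2.85e-10). KIT, the stem cell factor receptor, averaged 137 ± 23.4 normalized reads in Combination libraries and 415 ± 36.8 in DMSO libraries (log2 -1.60, limma adjusted p = 2.58e-06).

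Between Combination and IFNa limma called 1 gene of that list, ROR1, where 0.331% of all tested genes were called. edgeR called 1 of the list (0.344% of all tested genes), and DESeq2 called 3 (1.65% of the genes to which it gave an adjusted p). The authors' deposited results called 3 of the list and 231 genes in all. Without IFNa replicate 3 limma called 4 of the list, while its calls over all genes rose from 53 to 510. Without replicate 3 of every group limma called 6 of the list and 7.42% of all tested genes. ROR1 averaged 622 ± 18.7 normalized reads in Combination libraries and 797 ± 36.7 in IFNa libraries (log2 -0.36, limma adjusted p = 0.0355). The call was lost when any of 9 single libraries was left out, and without replicate 3 of every group the adjusted p was 0.0114.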
